A study of Homo sapiens with 6 samples.

Results

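The 10 genes described here encode antiviral effectors of 3 families, namely IFIT1, IFIT2, IFIT3 and IFIT5, the oligoadenylate synthetase genes OAS1, OAS2, OAS3 and OASL, and MX1 and MX2. They were found by name among 19491 genes measured by RNA-seq in PC-3 cells, an established human prostate cancer line, and all 10 were present and passed the filter on low reads. They were selected on their differences in level between treated and untreated cells, known from an earlier look at the same values, so those differences are given as a description, with no test. The cells were grown in RPMI medium with serum, penicillin-streptomycin and sodium pyruvate. They were left without compound (control) or received GPNA (L-γ-glutamyl-p-nitroanilide, 1 mM) or BenSer (O-benzyl-L-serine, 10 mM) for 48 h. The labels name no treatment for the control. According to the study's culture methods control wells received vehicle, and both compounds were diluted in water. Both compounds are amino acid analogues used to inhibit ASCT2 (SLC1A5), a glutamine transporter. The doses differ, so a difference between the compounds and a difference between the doses cannot be told apart. A single cell line was used, and in such bulk RNA more RNA per cell and more cells making it cannot be told apart.

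These genes belong to the response to interferon. Interferons bind receptors that carry the kinases JAK1 and TYK2, and these activate transcription factors such as STAT2. With its DNA-binding partner IRF9, STAT2 binds a DNA element called the interferon-stimulated response element (ISRE) near the start of its target genes. Cytosolic RNA sensors such as RIG-I (DDX58) and MDA5 (IFIH1) start the production of interferon, and some effector genes can also be switched on by interferon regulatory factors without it. The effectors act in different ways: IFIT proteins bind foreign RNA and hinder its translation, OAS enzymes make short oligoadenylates that set off RNA decay, and MX proteins are large GTPases that trap viral components.

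Levels are given as CPM, the reads of a gene scaled to the total of its library. Each group had 2 labelled libraries (columns 1 and 2), whose totals ranged from 23077986 reads (control) to 32178154 reads (BenSer). Columns of the same group agreed almost within read sampling (chi-square over degrees of freedom 1.04 to 1.06), whereas columns of different groups did not (5.33 to 20.6). The 2 columns were merged, each group counts as 1 sample, and no treatment has a p-value. Ratios below are of CPM on the merged reads, with exact Clopper-Pearson 95% intervals that cover counting error only. Differences are of log2(CPM + 1), and a gene was counted as higher or lower when it differed by at least 1.5-fold on that scale. The 5 epithelial markers KRT8, KRT18, KRT19, EPCAM and CDH1 summed to 1252 CPM in control cells, 1246 with GPNA and 1366 with BenSer. Of the 5 T and B cell, 5 myeloid and plasmacytoid dendritic cell and 3 endothelial markers none was analysed here, and of 4 fibroblast markers COL1A1 alone was, at 5.57, 3.73 and 4.46 CPM.

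All 10 genes were lowest in the control, intermediate with GPNA and highest with BenSer, and in each gene the columns of the 3 groups did not overlap. The same order without overlap was found in 6.35% of 18428 genes tested, and both GPNA columns lay above both control columns in 22.4% of genes, both BenSer columns above both control columns in 28.5%, and both BenSer columns above both GPNA columns in 31.7%. Summed over the 10 genes, the control columns reached 290 and 292 CPM, the GPNA columns 523 and 533 CPM, and the BenSer columns 872 and 877 CPM. With GPNA, 6 of the 10 were at least 1.5-fold higher than in the control, namely both MX genes, OAS1, OAS2, IFIT1 and IFIT3, where 0.340% of the 18828 genes tested were higher. With BenSer, 9 of the 10 were higher, all but IFIT5, where 1.96% of 18976 genes were. None of the 10 was lower with either compound, where 0.0637% of all genes were lower with GPNA and 1.58% with BenSer. The median difference of the 10 genes was 0.70 with GPNA and 1.60 with BenSer, beside -0.03 for all genes in both comparisons. Since the genes were picked with these contrasts in view, nothing is read from these counts about the families as such.

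**Figure D1:**
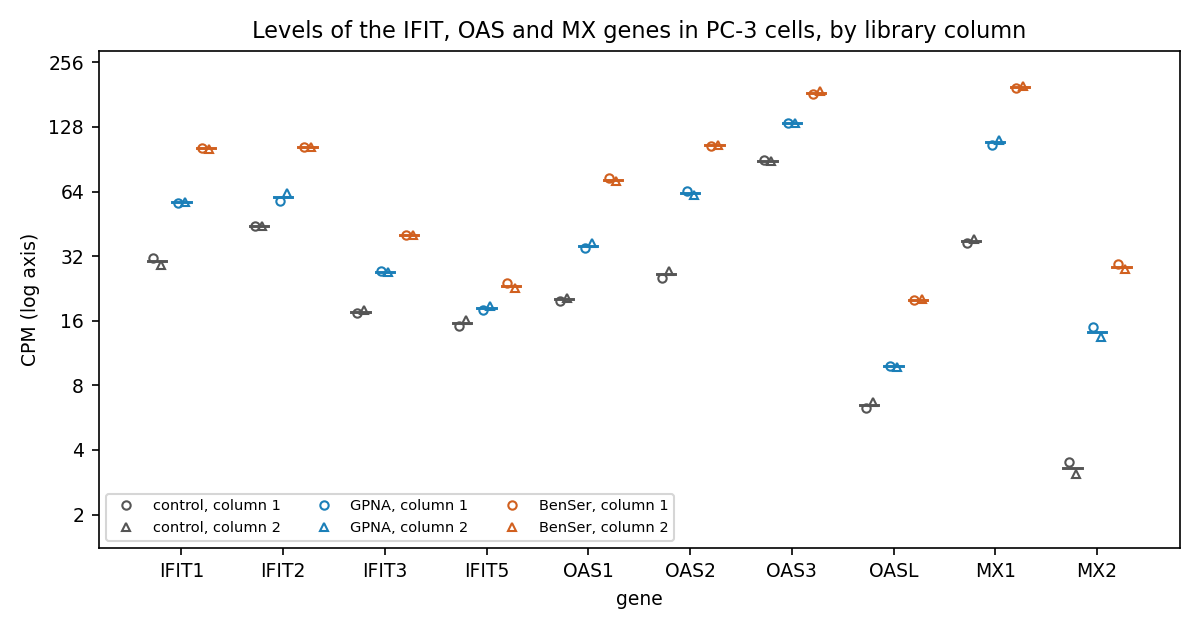
Level of each gene in CPM (log axis) in the 2 columns (circle and triangle) of the control, GPNA and BenSer groups, with a line at the group mean. In each of the 10 genes the control symbols lie lowest and the BenSer symbols highest, as for MX2, from 3.08 CPM in a control column to 29.3 CPM in a BenSer column.

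MX1, a cytoplasmic GTPase known for blocking influenza viruses, was measured at 36.9 and 38.3 CPM in control cells, 106 and 111 CPM with GPNA, and 194 and 198 CPM with BenSer. Both columns of each treated group lay far above the control columns. The ratio to the control was 2.89 (2.73 to 3.05) with GPNA and 5.21 (4.95 to 5.48) with BenSer. MX2, a nuclear pore protein known for restricting HIV, was at 3.53 and 3.08 CPM in the control. It stood at 15 and 13.5 CPM with GPNA and at 29.3 and 27.8 CPM with BenSer. These values rest on 153 reads in control cells, 731 with GPNA and 1830 with BenSer over both columns. The ratio of MX2 to the control was 4.32 (3.62 to 5.17) with GPNA and 8.64 (7.32 to 10.3) with BenSer, in each case the highest of the 10 genes and with an interval that did not reach that of MX1. Among all genes tested, MX2 had the highest difference with BenSer and MX1 ranked 3.

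MX2 and MX1 lie next to each other on chromosome 21, at chr21:42733926-42781320 and chr21:42791947-42841998 of GRCh37, on the forward strand. Exons of MX1 overlap TMPRSS2, a serine protease gene on the other strand, and AP001610.5. TMPRSS2 was at 16.5 CPM in control cells, 17.6 with GPNA and 24.1 with BenSer, and the group mean of AP001610.5 did not exceed 0.546 CPM. The strand setting of the counting is not given in the sources used here, so how far reads of overlapping genes were kept apart is unknown.

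Promoters from RefSeq (GRCh38.p14, 250 bases before to 50 after each start) were searched on both strands for the ISRE letters, a pair of GAAA runs with NN between them (TTTC runs when read on the other strand), and for TTCNNNGAA, the letters of GAS, the gamma interferon activation site, which may overlap an ISRE. The table holds 9 promoters of 6 of the 10 genes, namely IFIT1, IFIT3, IFIT5, OAS1, OAS3 and MX1. IFIT2, OAS2, OASL and MX2 were not analysed here. Of these 6 genes, 5 held the ISRE letters in a promoter, all but OAS1, where 4.38% of all 27305 genes of the table and 3.57% of its 35116 promoters held them. GAS letters were in 2 of these 6 genes, OAS1 and MX1, where 9.38% of all genes of the table and 7.66% of its promoters held them. A match is a description of letters and says nothing of binding. The sequences around the matches are printed with each family because these genes were higher together. Each window was found once within 50000 bases of its gene in GRCh37, is written 5′ to 3′ on the forward strand with GRCh37 coordinates, and has the ISRE letters in capitals.

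**Figure D2:**
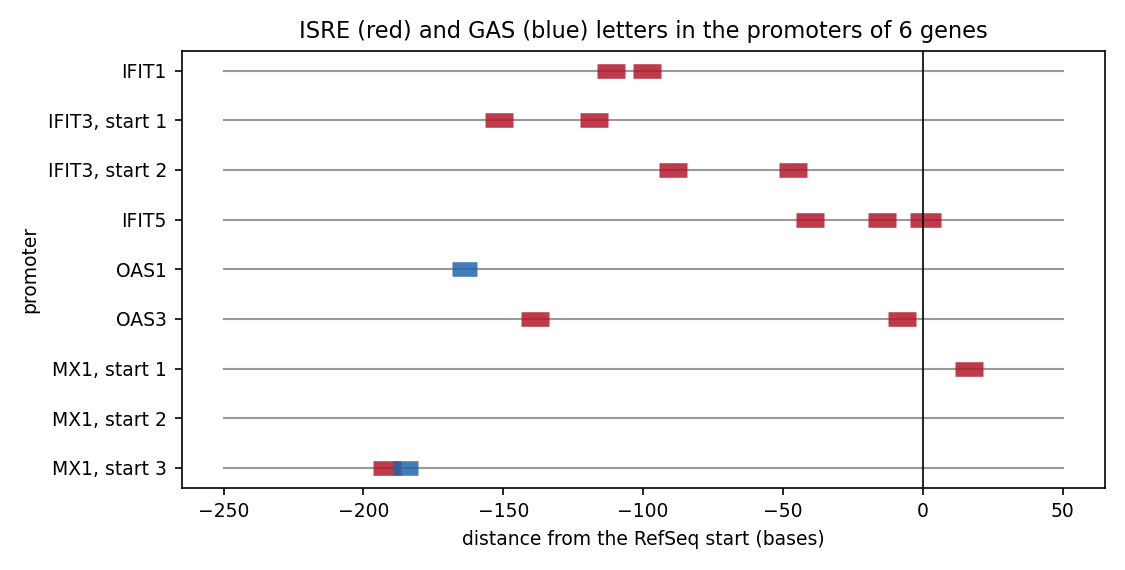
Positions of ISRE letters (red) and GAS letters (blue) in the 9 RefSeq promoters of 6 genes, in bases from the start of transcription (0, vertical line). ISRE letters occur in 7 of the 9 promoters, and the OAS1 promoter holds GAS letters alone.

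MX1 has 3 RefSeq starts. Start 3 has ISRE letters from 196 to 187 bases upstream, overlapping GAS letters that end 181 bases upstream. Start 1 has ISRE letters only within its transcribed part, from base 12 to base 21, and the promoter of start 2 has no match.
MX1, start 3, chr21:42803766-42803805: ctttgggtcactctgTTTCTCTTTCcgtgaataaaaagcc

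OAS1 and OAS2 are synthetases of the cytosol that respond to double-stranded RNA, and OAS3 is the long form of the enzyme. OAS2 was at 25.2 and 27.4 CPM in control cells, 64.5 and 62.0 CPM with GPNA and 105 and 105 CPM with BenSer. Its ratio to the control was 2.40 (2.25 to 2.57) with GPNA and 3.99 (3.75 to 4.24) with BenSer, and its difference ranked 4 among all genes tested in both comparisons. OAS1 was at 19.7 and 20.5 CPM in control cells, 34.8 and 36.7 CPM with GPNA and 74.0 and 71.4 CPM with BenSer. The 3 groups lay well apart, and the ratio was 1.78 (1.64 to 1.92) with GPNA and 3.61 (3.37 to 3.88) with BenSer. With BenSer the intervals of OAS1 and OAS2 overlapped, and with GPNA that of OAS2 lay higher.

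OAS3 was at 90.2 and 88.4 CPM in control cells, 133 and 134 CPM with GPNA and 182 and 188 CPM with BenSer. Its ratio with BenSer, 2.07 (2.0 to 2.14), was the lowest of the 10 genes but for that of IFIT5. With GPNA its ratio was 1.5 (1.44 to 1.56) and its difference of 0.58 in log2(CPM + 1) lay just under the 1.5-fold threshold. OASL, a relative without synthetase activity that aids signalling by RIG-I, was at 6.29 and 6.72 CPM in control cells, 9.88 and 9.74 CPM with GPNA and 19.9 and 20.2 CPM with BenSer. The groups did not overlap. Its ratio was 1.51 (1.31 to 1.75) with GPNA and 3.09 (2.72 to 3.51) with BenSer, and with GPNA the difference of 0.53 on the log2 scale with a pseudocount of 1 also lay under the threshold. Summed over the family, the level was 141 and 143 CPM in control cells, 243 and 243 CPM with GPNA and 380 and 385 CPM with BenSer.

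OAS1, OAS3 and OAS2 lie side by side on the forward strand of chromosome 12, at chr12:113343661-113371024, chr12:113375856-113414265 and chr12:113416200-113449528. OASL lies apart from them on the reverse strand, at chr12:121455566-121477049. Exons of OAS1 overlap the antisense gene RP1-71H24.1, whose mean did not exceed 0.358 CPM in any group. The OAS3 promoter holds ISRE letters from 143 to 134 and from 12 to 3 bases upstream of the start. The OAS1 promoter holds no ISRE letters and 1 match to GAS, from 168 to 160 bases upstream.
OAS3, distal match, chr12:113376121-113376160: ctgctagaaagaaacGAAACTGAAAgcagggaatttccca
OAS3, proximal match, chr12:113376252-113376278: cggagagccgggcggGAAAACGAAAcc

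IFIT1, which binds RNA whose cap lacks ribose methylation, was at 31.4 and 29.1 CPM in control cells, 56.9 and 57.4 CPM with GPNA and 102 and 101 CPM with BenSer. Its ratio to the control was 1.89 (1.77 to 2.01) with GPNA and 3.36 (3.17 to 3.56) with BenSer, the highest of the family in both. IFIT3, which binds IFIT1 and stabilises it, was at 17.4 and 17.9 CPM in control cells, 27.3 and 27.0 CPM with GPNA and 40.1 and 40.1 CPM with BenSer. The ratio was 1.54 (1.41 to 1.68) with GPNA and 2.27 (2.10 to 2.46) with BenSer. Its difference of 0.59 with GPNA was the lowest of the 6 past the threshold, and it fell short without column 1 of GPNA (0.58) or without column 1 of the control (0.57).

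IFIT2, a partner of IFIT1 and IFIT3 linked to cell death, was at 44.1 and 44.2 CPM in control cells, 57.6 and 63.0 CPM with GPNA and 103 and 103 CPM with BenSer. The GPNA columns lay apart by more than those of the other groups, though still above the control. The ratio was 1.36 (1.29 to 1.44) with GPNA, under the threshold, and 2.33 (2.22 to 2.45) with BenSer. IFIT5, which acts alone and binds RNA with a triphosphate end, differed least of the 10 genes. It was at 15.1 and 16.2 CPM in control cells, 17.9 and 18.7 CPM with GPNA and 23.9 and 22.7 CPM with BenSer. Its columns did not overlap between groups, but its ratios of 1.17 (1.06 to 1.29) with GPNA and 1.49 (1.36 to 1.63) with BenSer stayed below those of the other members of the family. Summed over the family, the level was 108 and 107 CPM in control cells, 160 and 166 CPM with GPNA and 269 and 267 CPM with BenSer.

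**Figure D3:**
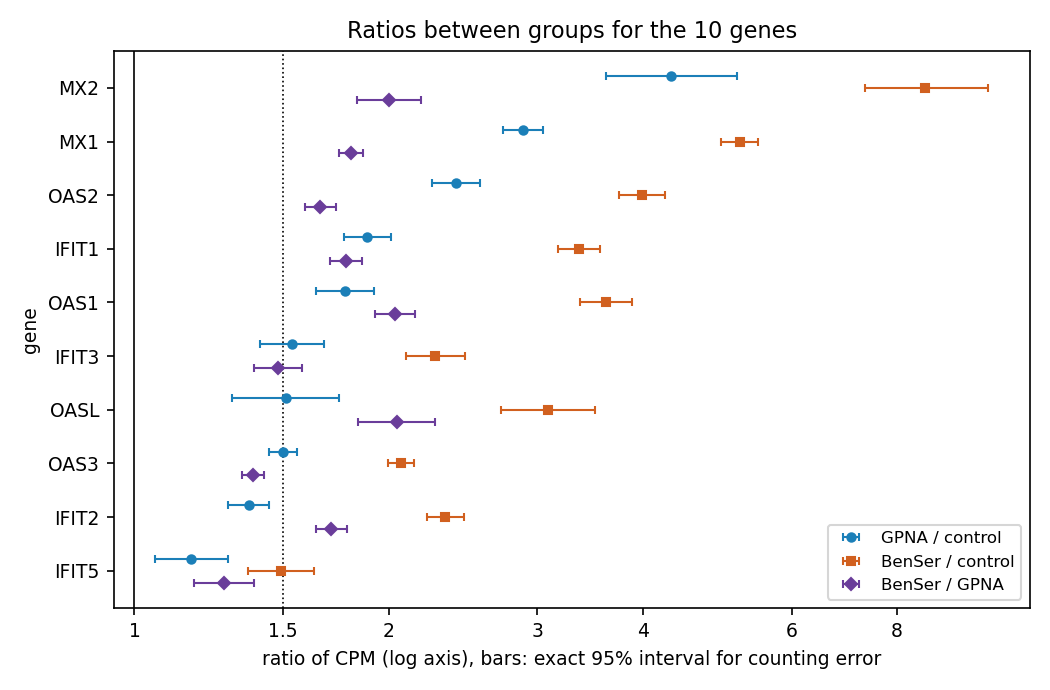
Ratio of CPM (log axis) for each gene, GPNA to control (circles), BenSer to control (squares) and BenSer to GPNA (diamonds), with exact 95% intervals for counting error and a dotted line at 1.5. MX2 lies farthest right at 4.32 and 8.64 against the control, and IFIT5 farthest left at 1.17 and 1.49.

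The IFIT genes lie together on the forward strand of chromosome 10, in the order IFIT2 (chr10:91043451-91069028), IFIT3 (chr10:91087064-91137230), IFIT1 (chr10:91152303-91166244) and IFIT5 (chr10:91174325-91181362). Exons of IFIT2 and IFIT3 overlap those of LIPA, a lysosomal lipase gene on the reverse strand, which was at 54.1 CPM in control cells, 54.0 with GPNA and 49.6 with BenSer. LIPA was thus not higher in the treated cells. IFIT2 also overlaps RP11-149I23.3 on its own strand, with group means of 1.23 CPM or less. Every IFIT promoter in the table held ISRE letters, all as TTTC runs on the forward strand. They start 116 and 103 bases upstream of the start in IFIT1, 156 and 122 bases upstream of start 1 of IFIT3, and 94 and 51 bases upstream of its start 2. IFIT5, with the lowest ratios, holds 3 matches, starting 45, 19 and 4 bases upstream, the last of which runs into the transcribed part, so that only its first 4 letters are in the printed window, at its end and in lower case.
IFIT1, chr10:91152249-91152301: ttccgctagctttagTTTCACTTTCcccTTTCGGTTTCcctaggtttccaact
IFIT3, start 1, chr10:91087583-91087656: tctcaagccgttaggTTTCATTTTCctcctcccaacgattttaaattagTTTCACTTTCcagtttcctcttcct
IFIT3, start 2, chr10:91092177-91092259: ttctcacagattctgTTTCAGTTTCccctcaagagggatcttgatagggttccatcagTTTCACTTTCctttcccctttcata
IFIT5, chr10:91174265-91174324: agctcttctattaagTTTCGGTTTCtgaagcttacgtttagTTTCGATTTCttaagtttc

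Set against GPNA, BenSer levels were higher in each of the 10 genes, and 7 were at least 1.5-fold higher, where 1.05% of 19056 genes were higher and 0.813% lower. The median difference was 0.79, beside -0.01 for all genes. OASL, OAS1 and MX2 had ratios of 2.04 (1.84 to 2.27), 2.03 (1.93 to 2.15) and 2.0 (1.84 to 2.18), with intervals that overlapped. MX1 followed at 1.80 (1.75 to 1.86), IFIT1 at 1.78 (1.70 to 1.86), IFIT2 at 1.71 (1.64 to 1.79) and OAS2 at 1.66 (1.59 to 1.73). The 3 genes under the threshold were IFIT3 at 1.48 (1.38 to 1.58), OAS3 at 1.38 (1.34 to 1.42) and IFIT5 at 1.28 (1.17 to 1.39). The order of the genes by ratio was not the same as against the control. OASL, which came after 6 others with GPNA, headed this comparison, and OAS2, which came after MX2 and MX1 alone in both comparisons with the control, came after 6 others. The comparisons share samples, so no correlation between them is given.

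Per kilobase of all annotated exons (GENCODE 44 on GRCh37), the level of IFIT2 was the highest of the 10 in each group, at 10.2 CPM per kb in control cells, 13.9 with GPNA and 23.8 with BenSer, and that of MX2 the lowest, at 0.227, 0.979 and 1.96. MX1 stood at rank 7 in control cells, 4 with GPNA and 3 with BenSer, at 2.09, 6.03 and 10.9 CPM per kb. In this order IFIT5 and IFIT3 were the only neighbours whose columns overlapped in the control, and no neighbours overlapped with GPNA or BenSer. The order depends on the length used. Per kilobase of the canonical transcript, an alternative chosen after seeing the data, MX1 was at rank 1 in each group, at 13.5, 39.1 and 70.5 CPM per kb, and OAS1 at rank 4 in the control and 2 with either compound. On that scale the columns of MX1 and OAS3 overlapped in the control, as did those of IFIT3 and IFIT1.

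Other genes of the pathway were counted from lists that were drawn up with earlier results of these data known. Of 29 other interferon-stimulated effectors, 18 were at least 1.5-fold higher with GPNA and 26 with BenSer, with median differences of 0.71 and 1.15. The highest with GPNA were IFITM1, which hinders viral entry, at a difference of 1.23 with GPNA and 1.90 with BenSer, and CMPK2, a mitochondrial nucleotide kinase, at 1.15 and 1.86. The lowest with GPNA was TRIM22, a ubiquitin ligase, at 0.05 and 0.45. The median of the 10 genes was close to that of this list with GPNA and above it with BenSer. Their difference was not tested.

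Of 8 signal transducers, none was at least 1.5-fold higher with GPNA and 4 were with BenSer, with medians of 0.16 and 0.48. With GPNA 1 of them passed with TMM scaling, DESeq2 size factors, a pseudocount of 0.1 or 0.5, or without column 2 of GPNA or column 1 of the control, and 2 passed when scaled to reads on listed genes. STAT2 was at 74.5 CPM in control cells, 96.3 with GPNA and 115 with BenSer. IRF9, its DNA-binding partner, was at 2.03, 3.34 and 2.82 CPM. Its ratio of BenSer to GPNA was 0.85 (0.68 to 1.05), so its order between the compounds lay within counting error. The kinase JAK1 gave the lowest difference with GPNA, -0.08, at 95.7, 90.7 and 104 CPM. Of 10 RNA and DNA sensors, 2 were higher with GPNA and 4 with BenSer. IFIH1 was at 12.0, 21.0 and 31.1 CPM and DDX58 at 22.8, 36.6 and 51.2 CPM, both in the order seen for the 10 genes. TICAM1, an adaptor of endosomal RNA sensing, was at 11.7, 9.0 and 11.7 CPM.

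Of 15 interferon and receptor genes 8 were analysed, and IFNB1 was not among them. None of those tested was at least 1.5-fold higher or lower with either compound, although 1 passed with BenSer under DESeq2 size factors, with a pseudocount of 0.1 or without column 2 of the control. The medians were 0.07 with GPNA and 0.22 with BenSer. The receptor subunits IFNGR2 and IL10RB had the highest differences with GPNA, 0.24 and 0.17, and IFNLR1 the lowest, -0.08. IFNAR1, a subunit of the type I receptor, was at 37.1, 37.7 and 45.1 CPM. The interferon genes with values were IFNE and IFNK, both with few reads. IFNE was at 0.388, 0.391 and 0.826 CPM, with a wide interval for its ratio with BenSer, 2.13 (1.23 to 3.86). The group mean of IFNK did not exceed 0.196 CPM.

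None of 4 partners of the OAS enzymes in RNA decay (the RNase L pathway) was at least 1.5-fold higher or lower with either compound. Their medians were -0.17 with GPNA and -0.21 with BenSer. Of 9 large dynamin-related GTPases, relatives of the MX proteins that shape membranes, none passed the threshold with either compound, and the medians were -0.08 and -0.10. DNM3 had the highest difference with GPNA at 0.24, MFN1 followed at -0.02 and DNM1 had the lowest at -0.50. Of 11 NF-kB targets none was higher with either compound, and CXCL1 alone was lower with BenSer, at 25.4 CPM in the control and 16.2 CPM. CXCL2 and NFKBIA had the highest differences of that list with GPNA, 0.10 and 0.07, and TNFAIP3 the lowest, -0.31. The nearest 3 analysed genes on each side of the 4 loci were counted as well. Of these 24 neighbours none was at least 1.5-fold higher or lower with BenSer, and none of the 23 tested with GPNA. With BenSer their differences ran from -0.55 (KIF20B) to 0.33 (RIPK4), and with GPNA the highest was 0.20 (P2RX4).

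**Figure D4:**
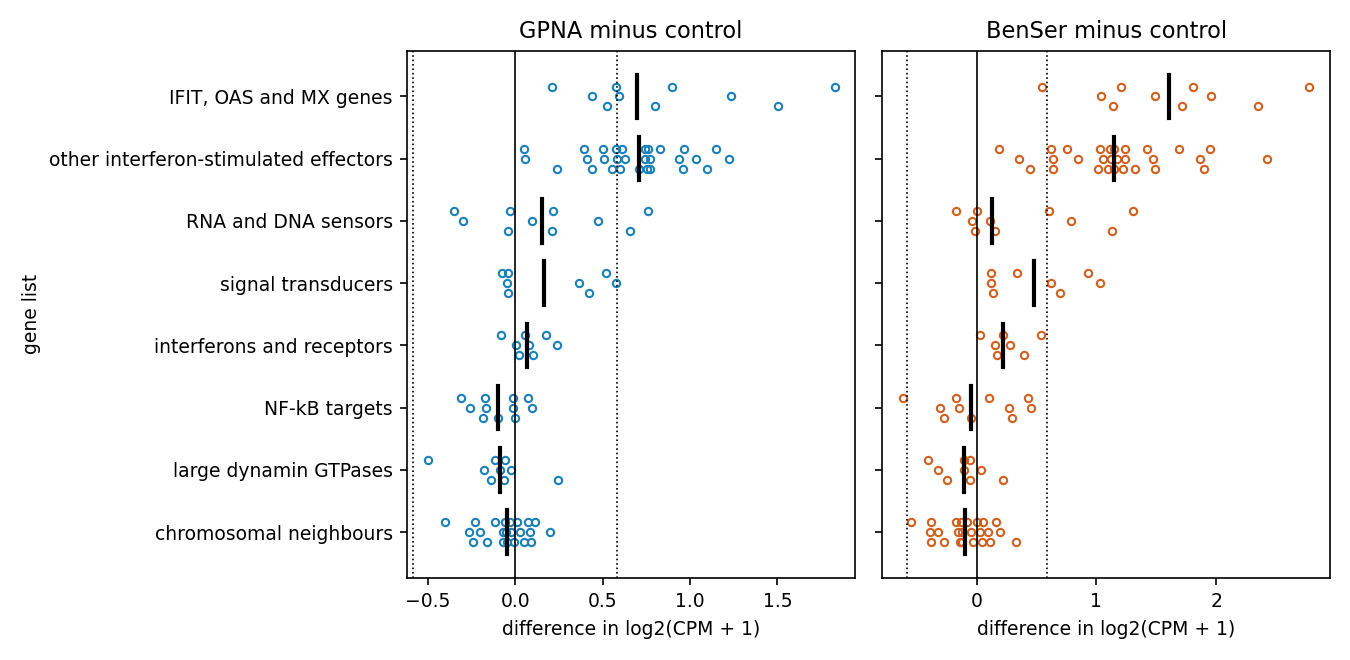
Difference in log2(CPM + 1) from the control for each gene of each list (circles), with the median of the list (bar) and dotted lines at 1.5-fold in either direction, with GPNA on the left and BenSer on the right. The 10 genes have medians of 0.70 and 1.60, and the neighbours, dynamin relatives and NF-kB targets have medians between -0.10 and -0.04.

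Of the 64 genes at least 1.5-fold higher with GPNA, 6 were among the 10 genes and 20 more were on the interferon lists. Of the 371 higher with BenSer, the numbers were 9 and 34. The lists counted here are the signal transducers, the RNA and DNA sensors and the other effectors. They held 8, 10 and 29 of the 18828 genes tested with GPNA and of the 18976 tested with BenSer. Members and lists were chosen with earlier results of these data known, so nothing is read from these overlaps. Of the 64, 41 had a promoter in the table and 17 of these (41.5%) held ISRE letters, and 14 of 37 (37.8%) did so without the 10 genes. Of all genes tested with GPNA that had a promoter in the table, 4.10% did. With BenSer, 42 of 260 higher genes (16.2%) and 8 of 191 lower genes (4.19%) did, where 4.12% of the genes tested did. Of 25 other interferon-stimulated effectors with a promoter, 18 held ISRE letters, and of 5 signal transducers none did.

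The genes nearest in pattern to the median of the 10 were sought among 13347 genes, by the distance between the pairs of differences with GPNA and BenSer. This likeness rests on 3 groups of 1 sample each. The nearest was STK32A, a kinase gene, with differences of 0.71 and 1.48 at a distance of 0.12. SAMD9L, CYP1B1, IFI44, GDF15, SAMD9, IFI44L, JDP2, CHAC1 and IFIH1 followed, at distances up to 0.31. Of these 10, 5 were on the interferon lists (SAMD9L, IFI44, SAMD9, IFI44L and IFIH1), where 50 of the 13347 genes (0.375%) were. The other 5 include GDF15 and CHAC1, known to be induced in amino acid and endoplasmic reticulum stress, and CYP1B1, a xenobiotic-metabolising enzyme. GDF15 was at 11.5, 16.7 and 32.5 CPM in the control, GPNA and BenSer groups and CHAC1 at 3.91, 7.73 and 11.3 CPM.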

How the data were processed

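RNA-seq of PC-3 cells was analysed in 3 groups. According to the study, stranded total RNA libraries were sequenced in paired ends, trimmed and mapped to hg19/GRCh37.p13 with TopHat2. The submitters' processing notes also name Bowtie2, HTSeq 0.6.2p2 and DESeq. The strand setting and annotation release of the counting are not given in the sources used here. The authors deposited CPM values, that is reads per gene over the library total, in 2 tables, beside log2 fold changes, p-values and false discovery rates of their own comparisons, which were not used. Of 16 value column entries in both tables, 8 could not be matched by name to a labelled sample and were not used, although all had been looked at. The study's methods speak of 4 replicates per group, and each table has 4 columns per group, of which the labels name 2.

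All deposited CPM values (100%) came out whole in reads, within 0.01 reads, so reads and totals were recovered. Columns 1 and 2 of a group were compared by chi-square, using genes with 20 reads or more (15623 genes in the control, p = 1.99e-08, 16003 with GPNA, p = 4.48e-05, and 16498 with BenSer, p = 1.26e-05) and, since the excess over sampling was small, merged as 1 sample. The labels do not say that they came from separate cultures. Mean CPM was compared as log2(CPM + 1) where either group averaged 5 reads or more, with a threshold of 1.5-fold. No test was applied to them. edgeR 4.0.16 and DESeq2 1.42.0 on recovered reads, edgeR also with a replicate block, compare libraries and served as alternatives, as did other pseudocounts, filters, scalings, thresholds and single columns. The scripts were tested on simulated data.

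The members and lists were chosen with earlier results of these data known. Named genes are the 10 members, in each list the 2 highest and the 1 lowest in difference with GPNA, genes of a defining role, the 10 nearest in pattern, and a few chosen after their values were seen (IFNAR1, IFNE, IFNK, CXCL1, KIF20B, RIPK4 and the genes that overlap members). Gene positions are from GENCODE 44 on GRCh37, and promoters from RefSeq on GRCh38.p14, matched to GRCh37 by sequence. Doses were taken from the study's text. Python 3.11.15, numpy 2.4.6, pandas 2.3.3, scipy 1.17.1, matplotlib 3.10.9 and R 4.3.3 were used. A few genes of the lists are not reported here.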

Additional observations from a re-analysis of the deposited data

How the results depend on the processing

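All 10 genes stayed higher with GPNA than in the control, and higher with BenSer than in either other group, under every pseudocount, filter, scaling and single column left out. Their median difference ran from 0.68 to 0.74 with GPNA, from 1.60 to 1.68 with BenSer and from 0.78 to 0.83 between the compounds. The number at least 1.5-fold higher with GPNA was 5 without column 1 of GPNA, where IFIT3 fell short, 7 with TMM scaling or DESeq2 size factors, which bring in OAS3, 7 with a pseudocount of 0.1, which brings in OASL, and 8 when scaled to reads on listed genes, which brings in OAS3 and OASL. It stayed at 6 without column 1 of the control, but with OAS3 in place of IFIT3. With BenSer it was 10 with TMM scaling, with DESeq2 size factors or without column 2 of the control, which bring in IFIT5. At a threshold of 2-fold it was 3 with GPNA, 9 with BenSer and 1 between the compounds. At that threshold 0 of the RNA and DNA sensors were higher with GPNA and 2 with BenSer. The median of the other interferon-stimulated effectors lay under 2-fold with GPNA (0.71) and above it with BenSer (1.15). TMM scaling moved the median of all genes by 0.03. Since the columns used were merged to 1 sample per group, they give no spread between cultures, and MX2 in the control, with 153 reads, is the value that depth limits most.

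The counts over all genes depended on the setting. In the order higher and lower with GPNA (64 and 12) and higher and lower with BenSer (371 and 300), they were 879, 652, 1205 and 1397 with a pseudocount of 0.1, 539, 515, 1396 and 1961 at a difference of 25% and 8, 1, 83 and 9 at 2-fold. A pseudocount of 0.5 gave 155 and 77 with GPNA and 492 lower with BenSer, and scaling to reads on listed genes gave 171 and 56 with GPNA. Leaving out 1 column gave 23 to 27 lower with GPNA. Between the compounds, 201 genes higher and 155 lower with BenSer became 930 and 1243 with a pseudocount of 0.1, 338 and 317 with 0.5, 1308 and 1349 at a difference of 25%, and 20 and 10 at 2-fold, and scaling to reads on listed genes gave 342 lower. The tests of libraries gave 3399 and 3037 (edgeR), 3346 and 2980 (edgeR with the replicate block) and 1941 and 1567 (DESeq2). The larger counts at a small pseudocount hold more genes of few reads by construction. As comparisons of libraries, edgeR's quasi-likelihood test at an adjusted p under 0.05 gave 1300, 1553, 3472 and 3331, DESeq2 gave 445, 534, 2016 and 1939, and edgeR with the replicate number as a replicate block gave 1004, 1208, 3176 and 3013. No label says that the replicate numbers pair columns across groups. Under the settings that could change them, 266 differences of single genes stayed within their 95% interval for counting error and 4 fell outside it. These 4 were those of MX2 against the control with a pseudocount of 0.1 (2.08 with GPNA and 3.07 with BenSer) and that of IFIT2 between the compounds without a GPNA column (0.70 and 0.83).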
